A study of Mus musculus with 8 samples.

Results

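The comparison is between group 2 innate lymphoid cells (ILC2s) cultured alone and CD8 T cells cultured alone, with 2 libraries on each side. Its members are the 16226 gene symbols listed in both deposited count tables, of 19805 symbols listed in either. A further 2163 symbols are in the ILC2 table only and 1416 in the CD8 T cell table only, and these are described apart. The ILC2s are primary cells from lung and the CD8 T cells primary cells from spleen. The genotype of all 4 groups of the series is wild type, and the cells cultured alone carry the treatment label "Untreated". The other 4 libraries of the series hold the same cell types after 3 days of co-culture at 5 CD8 T cells to 1 ILC2, and they serve here for reference. From each group 1000000 cells were isolated by flow cytometry before bulk RNA sequencing. The labels do not name the antibodies used for the sort, any stimulus or cytokine in the medium, or the age and sex of the mice.

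ILC2s are tissue lymphocytes that carry no antigen receptor on their surface. They respond to alarmins such as IL-33, through the receptor ST2 encoded by Il1rl1, and they make the type 2 cytokines IL-5 and IL-13 under the transcription factor GATA3. CD8 T cells recognise peptides on MHC class I through a clonal T cell receptor and the CD8 coreceptor. Once activated they kill target cells with perforin and granzymes and secrete interferon gamma.

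Cell type, tissue of origin and deposited table coincide in this design and cannot be told apart. The labels do not tie the 2 replicates of a group to different cultures or mice, and the p-values given here reflect only how far these libraries spread, which can be technical. Library totals ran from 52664716 to 60738117 counts. Pearson's r of log2 CPM between replicates, across genes, was 0.9911 for ILC2s and 0.9919 for CD8 T cells. CPM is the count of a gene scaled to 1000000 counts of the library's total. In bulk RNA, fewer cells of a type and less RNA per cell cannot be told apart. No entry of either table is 0. The symbols given with values therefore had reads in all 4 libraries of their table, co-cultured ones included. A symbol missing from 1 or both tables may still have had reads in some libraries, so its absence does not show lack of expression.

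Promoters of 4 genes are shown because they carry the central functions of either cell type: Il5 and Il1rl1 for ILC2s, Gzmb (granzyme B) and Ifng (interferon gamma) for CD8 T cells. Each run is the 250 bases before a RefSeq transcription start (GRCm38.p6), read 5′ to 3′ on the gene's strand. Capitals mark matches, on either strand, to the GATA motifs AGATAA and TGATAA, the Runx motif TGTGGT and the T-box motif AGGTGT. The Il5 window lies at chr11:53720544-53720793, plus strand, and that of Il1rl1 at chr1:40429320-40429569, plus strand, where it precedes 1 of the 2 starts listed in the promoter table, 24706 bases downstream of the annotated start of the gene. The Gzmb window lies at chr14:56262335-56262584, minus strand, and that of Ifng at chr10:118440796-118441045, plus strand.
Il5: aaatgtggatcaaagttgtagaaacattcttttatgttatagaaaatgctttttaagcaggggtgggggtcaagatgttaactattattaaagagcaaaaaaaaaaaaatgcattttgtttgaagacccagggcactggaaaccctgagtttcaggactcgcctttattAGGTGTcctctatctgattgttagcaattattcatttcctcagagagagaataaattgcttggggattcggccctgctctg
Il1rl1: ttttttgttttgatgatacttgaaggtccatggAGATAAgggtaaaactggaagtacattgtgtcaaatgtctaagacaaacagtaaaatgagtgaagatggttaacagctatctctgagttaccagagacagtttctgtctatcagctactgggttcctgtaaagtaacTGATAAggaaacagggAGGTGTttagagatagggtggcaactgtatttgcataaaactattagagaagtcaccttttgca
Gzmb: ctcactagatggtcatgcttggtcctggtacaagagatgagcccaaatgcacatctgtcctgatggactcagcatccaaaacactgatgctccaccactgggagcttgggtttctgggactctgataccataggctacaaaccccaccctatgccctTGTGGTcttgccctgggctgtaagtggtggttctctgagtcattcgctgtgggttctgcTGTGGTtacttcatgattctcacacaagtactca
Ifng: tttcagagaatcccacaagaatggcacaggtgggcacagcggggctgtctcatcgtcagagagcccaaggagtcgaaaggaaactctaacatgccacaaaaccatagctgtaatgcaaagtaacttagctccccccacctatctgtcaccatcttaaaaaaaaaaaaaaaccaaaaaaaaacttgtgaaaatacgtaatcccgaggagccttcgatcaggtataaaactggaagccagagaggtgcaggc
The Il1rl1 window holds 1 AGATAA, 1 TGATAA and 1 AGGTGT match, the Il5 window 1 AGGTGT match, and the Gzmb window 2 TGTGGT matches. The Ifng window holds none of these letters. Among 32851 promoter windows of the same length, 9.99% hold AGATAA, 7.94% TGATAA, 14% TGTGGT and 11.8% AGGTGT. These matches describe the letters and are not evidence of binding.

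Of 15196 genes that passed the filter on low counts, 10101 differed between ILC2s alone and CD8 T cells alone (edgeR quasi-likelihood test, Benjamini-Hochberg adjusted p under 0.05). That is 66.5% of the genes tested: 5265 genes (34.6%) were higher and 4836 (31.8%) lower in the ILC2 libraries. With a difference of at least 2-fold added to the rule, 4592 genes (30.2%) remained: 2912 genes (19.2%) were higher and 1680 (11.1%) lower. The median log2 difference over all genes tested was 0.012. All log2 differences are ILC2s alone minus CD8 T cells alone. In the plot of differences against level, the upper side reaches much farther from 0 than the lower side.

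**Figure D1:**
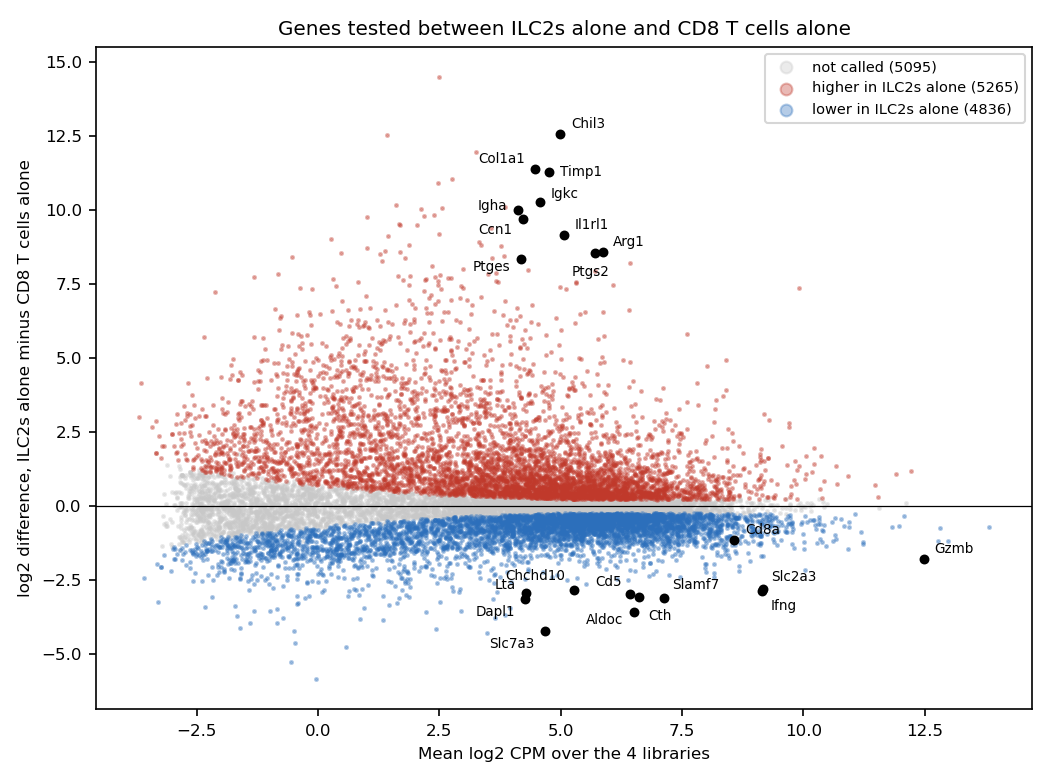
Each point is 1 of the 15196 genes tested; the horizontal axis is the mean log2 CPM over the 4 libraries and the vertical axis the log2 difference, ILC2s alone minus CD8 T cells alone. Black points are the 4 marker genes and the 10 largest differences in each direction, with Chil3 at 12.55 and Slc7a3 at -4.21 as the extremes among them.

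The 4 marker genes separated the groups in different ways. Il1rl1, the ST2 receptor of IL-33, stood at 738 and 856 CPM in the ILC2 libraries and 1.41 and 1.45 CPM in the CD8 T cell libraries, a log2 difference of 9.16 ± 0.16 (SE; edgeR adjusted p = 9.1e-15). Arg1, arginase 1, which ILC2s of the lung express constitutively, stood at 1194 and 1107 CPM in the ILC2 libraries and 3.89 and 2.26 CPM in the CD8 T cell libraries (log2 difference 8.59 ± 0.20; edgeR adjusted p = 1.1e-13). Both were below 4 CPM in each CD8 T cell library. Cd8a, the coreceptor alpha chain, stood at 249 and 258 CPM in the ILC2 libraries and 580.0 and 570.1 CPM in the CD8 T cell libraries (log2 difference -1.14 ± 0.10; edgeR adjusted p = 9.48e-08). Gzmb stood at 3209 and 2858 CPM in the ILC2 libraries and 10669.7 and 10854 CPM in the CD8 T cell libraries (log2 difference -1.79 ± 0.11; edgeR adjusted p = 2.19e-09). Cd8a and Gzmb were thus lower in the ILC2 libraries without overlap, with mean levels of 44.1% and 28.2% of those in the CD8 T cell libraries.

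Toward the ILC2 libraries, and with only genes at or above 4 in mean log2 CPM ranked, genes that are not ILC2 markers led the differences. Chil3, a chitinase-like protein of alternatively activated macrophages, stood at 2218 and 2719.5 CPM in the ILC2 libraries and 0.513 and 0.333 CPM in the CD8 T cell libraries (log2 difference 12.55 ± 0.21). Col1a1, the alpha 1 chain of type I collagen, stood at 1068 and 1226 CPM in the ILC2 libraries and 0.513 and 0.368 CPM in the CD8 T cell libraries (11.39 ± 0.19). Timp1, a secreted inhibitor of matrix metalloproteinases, stood at 1340.4 and 1424 CPM in the ILC2 libraries and 0.399 and 0.718 CPM in the CD8 T cell libraries (11.29 ± 0.20). These products belong to macrophages and to connective tissue cells in the textbook view. The immunoglobulin genes Igkc (kappa constant region) and Igha (heavy chain of IgA) followed, at 879 and 909 CPM and 570.4 and 553 CPM in the ILC2 libraries against 0.38 and 1.07 CPM and 0.399 and 0.718 CPM. Ccn1, a matricellular protein, stood at 508 and 559 CPM in the ILC2 libraries and 0.76 and 0.561 CPM in the CD8 T cell libraries (log2 difference 9.70). The prostaglandin synthesis enzymes Ptgs2 (cyclooxygenase 2) and Ptges (prostaglandin E synthase) completed the 10 with Il1rl1 and Arg1. Ptgs2 stood at 988 and 1002 CPM in the ILC2 libraries and 2.98 and 2.45 CPM in the CD8 T cell libraries, and Ptges at 293 and 355 CPM in the ILC2 libraries and 1.12 and 0.911 CPM in the CD8 T cell libraries, with log2 differences of 8.56 and 8.36. In all 10 genes both ILC2 libraries lay above both CD8 T cell libraries.

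Toward the CD8 T cell libraries the differences were smaller. Slc7a3, a transporter of cationic amino acids, led with 5.42 and 6.3 CPM in the ILC2 libraries and 119 and 104 CPM in the CD8 T cell libraries (log2 difference -4.21 ± 0.13; edgeR adjusted p = 1.5e-12). Ifng stood at 203 and 210.2 CPM in the ILC2 libraries and 1591 and 1513 CPM in the CD8 T cell libraries (-2.87 ± 0.10; edgeR adjusted p = 8.2e-12), and the lymphotoxin gene Lta at 7.0 and 6.95 CPM in the ILC2 libraries and 63.1 and 47 CPM in the CD8 T cell libraries (-2.94 ± 0.14). Of these 3 genes only Ifng was above 200 CPM in both ILC2 libraries. Surface receptors of T cells were among the 10: Cd5, an inhibitor of receptor signalling, at 32.1 and 29 CPM in the ILC2 libraries and 236 and 256 CPM in the CD8 T cell libraries (-2.97), and Slamf7 at 50.4 and 44 CPM in the ILC2 libraries and 404 and 421 CPM in the CD8 T cell libraries (-3.09). Metabolic genes made up much of the rest. Slc2a3, the glucose transporter GLUT3, stood at 199 and 234 CPM in the ILC2 libraries and 1340.0 and 1744 CPM in the CD8 T cell libraries (-2.79), and Aldoc, an aldolase of glycolysis, at 23.9 and 28.5 CPM in the ILC2 libraries and 296 and 339 CPM in the CD8 T cell libraries (-3.56). Cth, which makes cysteine from cystathionine, had a log2 difference of -3.07, Chchd10, a mitochondrial protein, of -2.84, and Dapl1 of -3.14. No library of one group overlapped the other group in any of the 10.

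**Figure D2:**
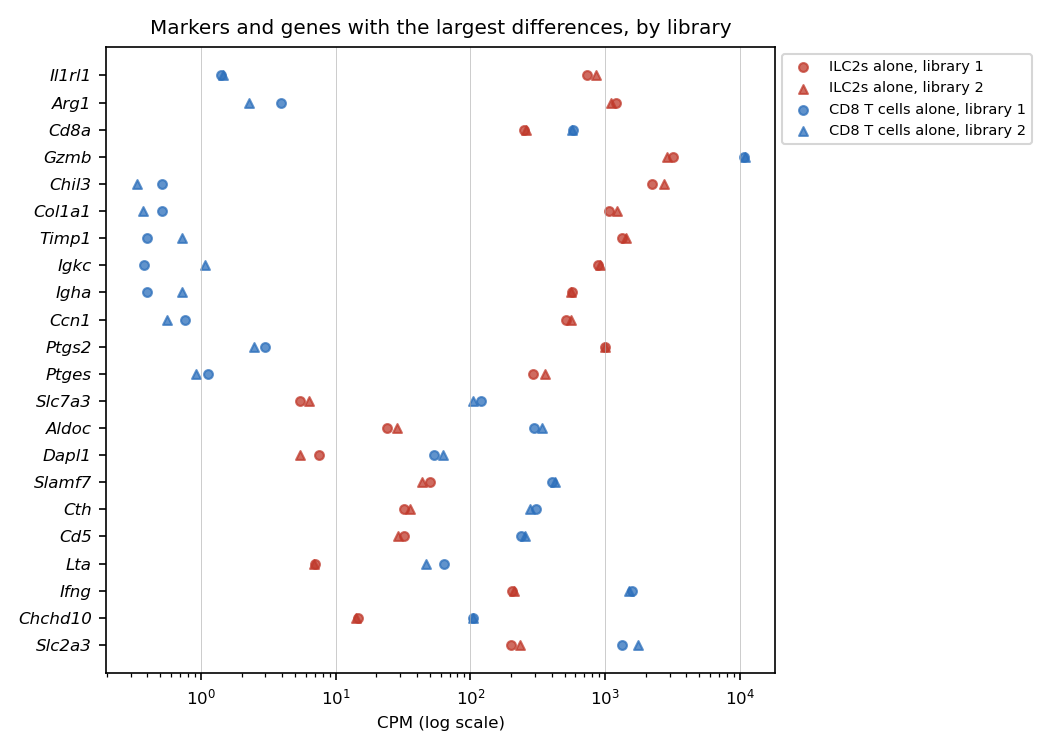
CPM on a log axis for the 4 marker genes and the 10 largest differences in each direction (Il1rl1 and Arg1 are in both sets); red symbols are ILC2s alone and blue symbols CD8 T cells alone, 1 symbol per library. The groups do not overlap for any gene shown, and the genes lower in ILC2s, from Slc7a3 down, keep several CPM or more in the ILC2 libraries.

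Most ILC2 identity genes were higher under the ILC2 label, and a few were not. Of 26 genes listed for ILC2 identity, 21 were in both tables and all were tested: 18 were higher in the ILC2 libraries and 3 lower, with a median log2 difference of 1.85. Il5 stood at 312 and 343 CPM in the ILC2 libraries and 10.5 and 9.86 CPM in the CD8 T cell libraries (log2 difference 5.05 ± 0.12; edgeR adjusted p = 1.11e-13). Gata3, the master regulator of type 2 lymphocytes and chosen here after its values were seen, stood at 429 and 399 CPM in the ILC2 libraries and 117 and 119 CPM in the CD8 T cell libraries (1.85 ± 0.10). Ly6a (Sca-1) stood at 1747 and 2100.1 CPM in the ILC2 libraries and 743 and 722 CPM in the CD8 T cell libraries and Id2, the inhibitor of DNA binding that all innate lymphoid cells need, at 575 and 610.3 CPM in the ILC2 libraries and 320.0 and 265 CPM in the CD8 T cell libraries, with log2 differences of 1.43 and 1.06. GATA3 and ID2 transcripts were thus abundant in both cell types and higher in ILC2s by less than 4-fold. The 3 lower genes were Bcl11b, Dgat2 and Thy1. Thy1, a surface glycoprotein of T cells and ILC2s, stood at only 12 and 10.9 CPM in the ILC2 libraries and 29.5 and 27.2 CPM in the CD8 T cell libraries, a log2 difference of -1.27. Dgat2, an enzyme of triglyceride synthesis, stood at 14.3 and 16.2 CPM in the ILC2 libraries and 28.8 and 29.1 CPM in the CD8 T cell libraries (-0.89), and Bcl11b, a factor of T cell and ILC2 commitment, differed by -0.36. Another 4 identity genes were in the ILC2 table only: Il17rb, a chain of the IL-25 receptor, at 116 and 98.8 CPM, Klrg1 at 92.9 and 107 CPM, Tph1, the serotonin pathway enzyme, at 75 and 66.7 CPM, and Il13 at 2.14 and 1.75 CPM. The gene of the prostaglandin D2 receptor CRTH2 (Ptgdr2) was in neither table.

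The same libraries also carried the antigen receptor genes of T cells. All 18 tested genes of the T cell receptor complex and its signalling were lower in the ILC2 libraries, with a median log2 difference of -1.68, yet none was at the floor. Their summed level was 2416 and 2248 CPM in the ILC2 libraries and 7217 and 7549 CPM in the CD8 T cell libraries. Trac, the constant region of the alpha chain, stood at 270.3 and 262 CPM in the ILC2 libraries and 789 and 848 CPM in the CD8 T cell libraries (-1.58 ± 0.10; edgeR adjusted p = 3.77e-09). Cd3e, the CD3 epsilon chain, stood at 185 and 202 CPM in the ILC2 libraries and 591 and 659.8 CPM in the CD8 T cell libraries (-1.65 ± 0.11). Lck, the kinase that starts receptor signalling, stood at 308 and 307 CPM in the ILC2 libraries and 990.4 and 1017 CPM in the CD8 T cell libraries (-1.67 ± 0.10). These 3 genes were lower in both ILC2 libraries without overlap. For 17 of these genes together with Cd8a and Cd8b1, the mean ILC2 level was between 8.16% (Sh2d1a, the adaptor SAP) and 50.5% (Cd247, the CD3 zeta chain) of the CD8 T cell level, with a median of 30.2%. For Trac the share was 32.5%, for Cd3e 31%, for Cd8a 44.1% and for Cd8b1 20.5%. In the co-cultured libraries of the series, compared in the same way, the median share was 5.26%, and 16 of the 19 genes had a lower share than in separate culture. Cd8a stood there at 0.675% and Trac at 1.23%, while Zap70 was at 89.2%. Whether the T cell transcripts of the ILC2 libraries came from T cells among the sorted cells was not tested.

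**Figure D3:**
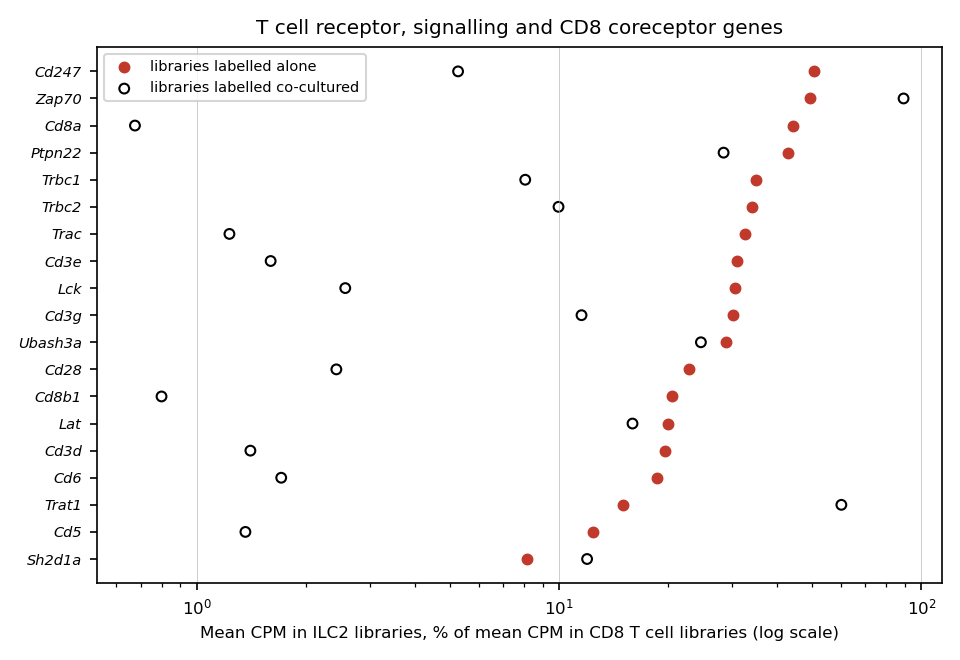
Mean CPM in ILC2 libraries as a percentage of mean CPM in CD8 T cell libraries, on a log axis, for 17 T cell receptor and signalling genes and the 2 CD8 chains; filled points are separate culture, open points co-culture. The filled points run from 8.16% to 50.5% and the open points from 0.675% to 89.2%.

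Genes of gamma delta T cells and ILC3s and of NK cells were more often called higher than lower in the ILC2 libraries. Those of CD4 and regulatory T cells were split, and the summed levels differed by list. Among all genes tested 34.6% were higher and 31.8% lower. The CD4 and regulatory T cell list summed to 565 and 564 CPM in the ILC2 libraries against 1085 and 1121 CPM. The NK cell list also summed lower, at 198 and 194 against 282 and 297 CPM. The genes of gamma delta T cells and ILC3s in both tables summed higher, at 168 and 154 against 56.1 and 44.8 CPM. Among 8 genes of CD4 and regulatory T cells, 4 were higher, 3 lower and 1 not called. Cd4 stood at 15.8 and 12.6 CPM in the ILC2 libraries and 1.01 and 1.21 CPM in the CD8 T cell libraries (3.71 ± 0.19) and Foxp3, the regulatory T cell factor, at 4.68 and 3.95 CPM in the ILC2 libraries and 0.133 and 0.315 CPM in the CD8 T cell libraries (4.27 ± 0.33). Ctla4 was high on both sides, at 375 and 389 CPM in the ILC2 libraries and 520.1 and 540.3 CPM in the CD8 T cell libraries (-0.44), and Tnfrsf4 (OX40) was lower in the ILC2 libraries at 135 and 123 against 501 and 514 CPM (-1.94). Of 6 tested genes of gamma delta T cells and ILC3s, 5 were higher and 1 was not called. Trdc, the delta chain constant region, stood at 48.1 and 51.8 CPM in the ILC2 libraries and 13.1 and 12.9 CPM in the CD8 T cell libraries (1.98 ± 0.11), and the cytokine gene Il22 at 57.5 and 43.7 CPM in the ILC2 libraries and 16.1 and 6.71 CPM in the CD8 T cell libraries (2.19 ± 0.26). Il17a was in the ILC2 table only, at 13 and 11.5 CPM. Of 8 NK cell genes, 5 were higher, 1 lower and 2 not called. Klra7, 1 of the 5, lost its call with library totals only (0.28), upper quartile scaling (0.21) and DESeq2 (0.29). The fit of all 8 libraries (0.31) ended it as well. Without ILC2 library 1, CD8 T cell library 1 or CD8 T cell library 2 its log2 difference was 0.29, 0.275 and 0.36. Tyrobp and Fcer1g, signalling adaptors of NK and myeloid cells, stood at 7.62 and 7.0 CPM and 25.7 and 29.9 CPM in the ILC2 libraries against 0.494 and 0.473 CPM and 6.06 and 3.47 CPM. The chemokine Xcl1 was the lower one, at 127 and 120.4 CPM in the ILC2 libraries and 247 and 264 CPM in the CD8 T cell libraries (-1.01).

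B cell and plasma cell genes were higher in the ILC2 libraries without exception among those tested. All 9 tested members of the list were higher, with a median log2 difference of 3.24, and 5 more were in the ILC2 table only. Summed over its genes in each library's own table, the list stood at 3339.7 and 3428 CPM in the ILC2 libraries, 265 and 259.9 CPM in the CD8 T cell libraries and 842 and 773 CPM in the co-cultured ILC2 libraries. Ighm, the heavy chain of IgM, stood at 1740.3 and 1659 CPM in the ILC2 libraries and 235 and 226 CPM in the CD8 T cell libraries (2.92 ± 0.10; edgeR adjusted p = 6.52e-12). Sdc1 (CD138), which marks plasma cells and is also expressed by epithelial cells, stood at 504 and 627 CPM in the ILC2 libraries and 5.22 and 7.2 CPM in the CD8 T cell libraries (6.54 ± 0.18). Jchain, which joins IgA and IgM into polymers, stood at 119 and 140.3 CPM in the ILC2 libraries, and its CD8 T cell libraries held 3 and 17 counts. Among the genes in the ILC2 table only were the surface gene Ms4a1 (CD20) at 16.8 and 16.1 CPM and the B lineage factor gene Pax5 at 0.56 and 0.704 CPM. Genes of both resting B cells and antibody-secreting cells were therefore read in the ILC2 libraries.

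Macrophage genes were higher in the ILC2 libraries with 1 exception among those tested. Of 22 listed genes 10 were in both tables, and 9 of these were higher and 1 lower, with a median log2 difference of 4.57. Each table held 12 of the 22 genes, which summed to 14871 and 15662 CPM in the ILC2 libraries and 212 and 215 CPM in the CD8 T cell libraries. Another 8 of the 22, among them C1qa, C1qb, C1qc, Marco and Trem2, were in neither table, which leaves their level in ILC2s alone unknown. Spp1 (osteopontin), which macrophages and several other cells secrete, made up most of the sum, at 12104 and 12389 CPM in the ILC2 libraries and 68.6 and 83.5 CPM in the CD8 T cell libraries (7.37 ± 0.15; edgeR adjusted p = 3.18e-14). Lyz2 (lysozyme) stood at 128 and 125 CPM in the ILC2 libraries and 3.74 and 2.17 CPM in the CD8 T cell libraries (5.47 ± 0.18). Ly6c2, expressed by inflammatory monocytes and by activated CD8 T cells, was the lower one, at 24.6 and 34 CPM in the ILC2 libraries and 112 and 103 CPM in the CD8 T cell libraries (-1.83 ± 0.14). Cd14, the lipopolysaccharide coreceptor, was in the ILC2 table only at 132 and 139.7 CPM, and Adgre1 (F4/80) at 3.79 and 3.75 CPM. Dendritic cell genes were divided, with 5 of 7 higher and 2 lower, beside 34.6% and 31.8% of all genes tested. Itgax (CD11c) stood at 26 and 31 CPM in the ILC2 libraries and 2.66 and 2.28 CPM in the CD8 T cell libraries (3.57) and the chemokine Ccl22 at 163 and 201 CPM in the ILC2 libraries and 13.1 and 9.32 CPM in the CD8 T cell libraries (4.06), whereas Batf3 and Irf8, which T cells also use, were lower (-1.82 and -0.68). The mast cell and basophil genes Cpa3 and Ms4a2 were both higher, Cpa3 at 141 and 114 CPM in the ILC2 libraries and 11.4 and 8.65 CPM in the CD8 T cell libraries (3.71), and 8 of that list's 16 genes were in neither table.

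Connective tissue genes were mostly present in the ILC2 table alone. Of 21 genes of fibroblasts and matrix, 14 were in the ILC2 table and 3 in the CD8 T cell table, and these 3 were all higher in the ILC2 libraries: Col1a1, Lum and Pdgfrb. Over its genes in each library's own table, the list summed to 9133 and 9893 CPM in the ILC2 libraries. It summed to 3.28 and 2.82 CPM in the CD8 T cell libraries and 116 and 121 CPM in the co-cultured ILC2 libraries. Over the 3 genes of both tables, the ILC2 libraries summed to 1158 and 1330 CPM and the CD8 T cell libraries to 3.28 and 2.82 CPM. In the co-cultured ILC2 libraries the 3 genes of both tables summed to 106 and 111 CPM, with Col1a1 at 0.64 and 0.312 CPM. Lum and Pdgfrb held nearly all of that sum and together did not fall as Col1a1 did. Lum (lumican, a matrix proteoglycan) stood at 61 and 71.7 CPM in the ILC2 libraries and 2.26 and 2.07 CPM in the CD8 T cell libraries (4.98 ± 0.14) and Pdgfrb, a receptor of mesenchymal cells, at 29.5 and 32.2 CPM in the ILC2 libraries and 0.513 and 0.385 CPM in the CD8 T cell libraries (6.14 ± 0.19). Acta2, smooth muscle actin, stood at 144 and 169 CPM in the ILC2 libraries and 0.171 and 0.175 CPM in the CD8 T cell libraries (9.84 ± 0.19), and all 3 tested genes of smooth muscle were higher. Of 6 epithelial genes 4 were higher, 1 lower and 1 not called, beside 34.6% higher and 31.8% lower among all genes tested. Cdh1 (E-cadherin) stood at 72 and 78 CPM in the ILC2 libraries and 0.779 and 0.456 CPM in the CD8 T cell libraries (6.97 ± 0.18), Krt18 (keratin 18) at 67.2 and 69.5 CPM in the ILC2 libraries and 0.93 and 1.3 CPM in the CD8 T cell libraries (5.97) and Epcam at 82.6 and 80.9 CPM in the ILC2 libraries and 15.5 and 16.2 CPM in the CD8 T cell libraries (2.40). Lung epithelial secretory genes were in the ILC2 table only and low, with Sftpc (surfactant protein C) at 16 and 12.4 CPM and Scgb1a1 (the club cell secretory protein) at 9.55 and 12.7 CPM. The 2 tested endothelial genes were higher, Pecam1 by 1.16 and Egfl7 by 0.89 on the log2 scale, and 6 of that list's 11 were in neither table. Whether cells of these kinds were among the sorted cells was not tested, nor how much of the other differences their RNA would account for. Leaving out marker genes cannot decide this, because the other genes of such cells stay in the fit. When only the marker lists of macrophages, dendritic cells, granulocytes, fibroblasts, smooth muscle, endothelium and epithelium were left out before fitting, 15163 of the 15196 genes were tested and 10072 were called.

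**Figure D4:**
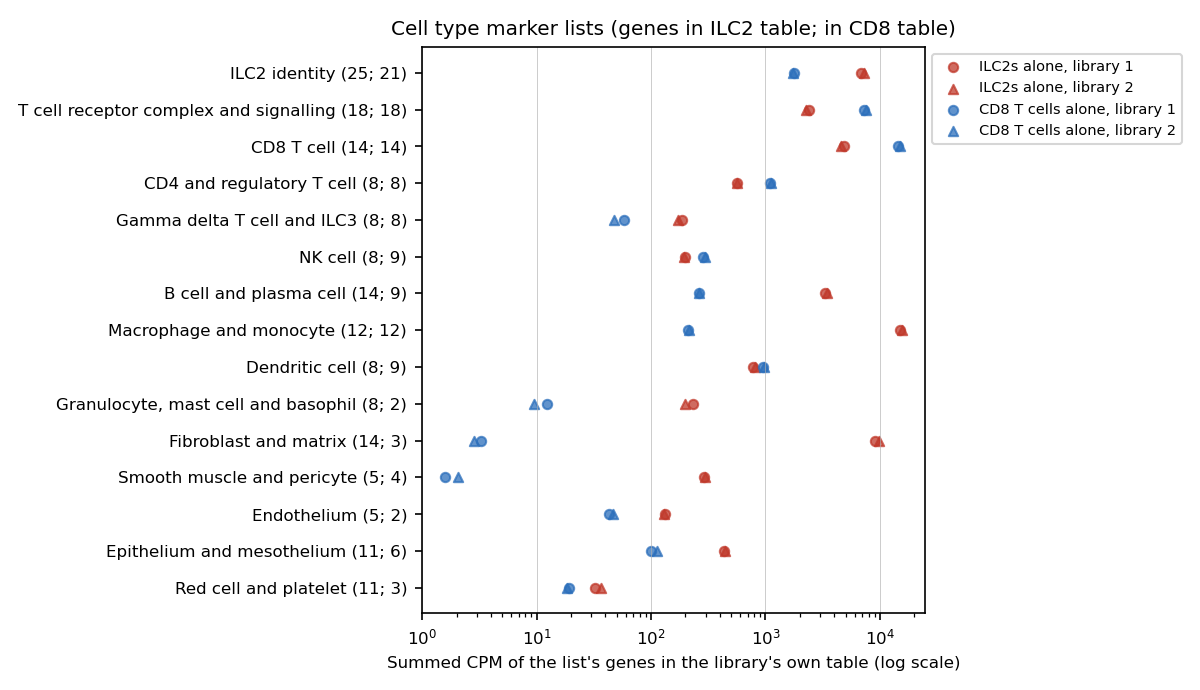
Summed CPM, on a log axis, of 15 cell type marker lists in each of the 4 libraries, each sum taken over the list's genes in that library's own table; the brackets give how many genes each table holds. Macrophage, fibroblast, smooth muscle and B cell lists lie far to the right in the ILC2 libraries, while T cell receptor and CD8 T cell lists lie within about 1 decade of the CD8 T cell libraries.

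Genes listed in the ILC2 table only held 2.62% and 2.78% of the counts of the ILC2 libraries, against 0.0805% and 0.0801% for genes listed in the CD8 T cell table only. Of the 2163 symbols 271 had a mean above 10 CPM and 39 above 100 CPM. Since no entry is 0, a symbol may be missing from the CD8 T cell table because 1 of its 4 libraries had no reads, and no fold is given for these genes. The 10 highest were Sparc, Col1a2, Dcn, Lox, Cxcl5, Serping1, Serpinh1, Ccn2, Mmp3 and Fn1, most of them secreted matrix proteins, their processing enzymes or a protease that degrades matrix. Sparc (osteonectin) stood at 2139 and 2317 CPM, Col1a2 (type I collagen) at 1319.8 and 1480.0 CPM, Dcn (decorin) at 1092 and 1087 CPM and Fn1 (fibronectin) at 589.8 and 649 CPM. In the co-cultured ILC2 libraries the same 4 genes stood at 1.24 and 0.25, 0.516 and 0.354, 6.56 and 6.09 and 0.165 and 1.75 CPM. Cxcl5, a neutrophil chemokine, differed most between the replicates among these 10, at 717 and 1085 CPM. Il6 was also in the ILC2 table only, at 401 and 457 CPM, and 3.18 and 3.08 CPM after co-culture. The ILC2 genes on this side showed no such loss: Il17rb stood at 104 and 101 CPM, Klrg1 at 246 and 273 CPM and Tph1 at 133 and 143 CPM in the co-cultured ILC2 libraries.

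Genes listed in the CD8 T cell table only were fewer and lower. Of 1416 symbols 8 had a mean above 10 CPM and none above 100 CPM. The highest was Il3, a growth factor of basophils and mast cells that activated T cells secrete, at 55.3 and 56 CPM. Evi2 stood at 38.4 and 71.5 CPM and differed widely between the replicates. Dntt, the terminal transferase that adds bases at receptor joints during T and B cell development, stood at 12.8 and 14.8 CPM. Il2, the growth factor of T cells, was at 1.04 and 0.613 CPM, and the granzyme genes Gzmf and Gzmg at 2.22 and 1.72 and 0.342 and 0.385 CPM.

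Type 2 products were higher in the ILC2 libraries, with a split between cytokines. Of 13 tested genes 10 were higher, 1 lower and 2 not called (median log2 difference 4.06), beside 34.6% higher and 31.8% lower among all genes. Beside Il5, the neuropeptide gene Calca stood at 132 and 122 CPM in the ILC2 libraries and 0.608 and 0.403 CPM in the CD8 T cell libraries (8.02 ± 0.17) and Alox5, 5-lipoxygenase of leukotriene synthesis, at 263 and 242 CPM in the ILC2 libraries and 12.4 and 10.8 CPM in the CD8 T cell libraries (4.48 ± 0.12). Il13 was, as given above, near 1.95 CPM and Il4 at 2.35 and 2.22 CPM, both in the ILC2 table only, and 8.62 and 12.2 and 3.59 and 3.37 CPM after co-culture. Csf2 (GM-CSF) was the lower one, at 46.4 and 35.7 CPM in the ILC2 libraries and 92.6 and 49.2 CPM in the CD8 T cell libraries (-0.75 ± 0.21; edgeR adjusted p = 0.0057). Its CD8 T cell replicates differed widely, and without CD8 T cell library 1 its log2 difference was -0.23 (edgeR adjusted p = 0.222). Without ILC2 library 2 it was -0.59 (edgeR adjusted p = 0.0552), and with DESeq2 -0.77 (adjusted p = 0.14). Penk, the enkephalin precursor, was not called, at 219 and 182 CPM in the ILC2 libraries and 192 and 159 CPM in the CD8 T cell libraries (0.23 ± 0.11; edgeR adjusted p = 0.0938). It was called higher without ILC2 library 2 (0.33; edgeR adjusted p = 0.0227) and without CD8 T cell library 1 (0.36; edgeR adjusted p = 0.0461).

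Receptors through which ILC2s sense their surroundings were mixed: 14 of 24 were higher, 8 lower and 2 not called. The shares among all genes tested were 34.6% higher and 31.8% lower. Nmur1, the neuromedin U receptor, stood at 44.5 and 50.3 CPM in the ILC2 libraries and 0.076 and 0.228 CPM in the CD8 T cell libraries (8.28 ± 0.23). The IL-2 receptor chains went the opposite way. Il2rb stood at 705 and 745 CPM in the ILC2 libraries and 1415 and 1454 CPM in the CD8 T cell libraries (-0.95 ± 0.10), Il2ra at 581 and 543 CPM in the ILC2 libraries and 741 and 769 CPM in the CD8 T cell libraries (-0.39 ± 0.10) and Il2rg at 737 and 723 CPM in the ILC2 libraries and 923 and 945 CPM in the CD8 T cell libraries (-0.32 ± 0.09; edgeR adjusted p = 0.00862). All 3 chains were abundant on both sides. Without CD8 T cell library 2, Il2rg was no longer called (log2 difference -0.29, edgeR adjusted p = 0.0717). Vipr1, a receptor of vasoactive intestinal peptide, was low throughout, at 0.247 and 0.433 CPM in the ILC2 libraries and 1.37 and 1.59 CPM in the CD8 T cell libraries (-2.09). Ptger4, a prostaglandin E2 receptor, stood at 12.1 and 12 CPM in the ILC2 libraries and 32.8 and 28.6 CPM in the CD8 T cell libraries (-1.31).

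Cytotoxic effector genes did not separate the groups in 1 direction. Of 22 tested genes 9 were higher in the ILC2 libraries, 8 lower and 5 not called, with a median log2 difference of -0.16. This split is near that of all genes tested (34.6% higher, 31.8% lower). Beside Gzmb, the granule protein gene Nkg7 was lower, at 301 and 338 CPM in the ILC2 libraries and 1003 and 1098 CPM in the CD8 T cell libraries (-1.68 ± 0.11; edgeR adjusted p = 4.91e-09). Gzme and Gzmd, neighbours of Gzmb in the granzyme cluster, were higher: Gzme stood at 30.1 and 26.4 CPM in the ILC2 libraries and 1.2 and 1.23 CPM in the CD8 T cell libraries (4.58 ± 0.16) and Gzmd at 36.5 and 32.3 CPM in the ILC2 libraries and 2.7 and 1.82 CPM in the CD8 T cell libraries (3.97 ± 0.17). Gzma and Prf1 were chosen after their values were seen. Gzma (granzyme A) was higher, at 381 and 400.4 CPM in the ILC2 libraries and 134 and 125 CPM in the CD8 T cell libraries (1.63 ± 0.10), and Prf1 (perforin) stood at 332 and 337 CPM in the ILC2 libraries and 290.3 and 448 CPM in the CD8 T cell libraries (-0.11 ± 0.15; edgeR adjusted p = 0.558). Granzyme transcripts were thus read in ILC2 libraries that also held T cell receptor genes at a median of 30.2% of the CD8 T cell level, and the part of T cells in them was not tested. Granzyme genes are close relatives, and how reads shared between them were counted is not given in the sources used here. Srgn (serglycin, the granule proteoglycan) stood at 1312 and 1506 CPM in the ILC2 libraries and 619.6 and 625 CPM in the CD8 T cell libraries (1.22), and Serpinb9, which inhibits granzyme B in the cell that makes it, at 684 and 723 CPM in the ILC2 libraries and 694 and 718 CPM in the CD8 T cell libraries (0.03 ± 0.10; edgeR adjusted p = 0.777).

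Type 1 cytokines and their regulators were mostly lower in the ILC2 libraries, with 13 of 19 lower and 6 higher (median -0.60). Of all genes tested, 31.8% were lower and 34.6% higher. The chemokine genes Ccl3 and Ccl4 were abundant on both sides and modestly lower: Ccl3 stood at 324 and 355 CPM in the ILC2 libraries and 456 and 468 CPM in the CD8 T cell libraries (-0.41) and Ccl4 at 292 and 342 CPM in the ILC2 libraries and 433 and 520.4 CPM in the CD8 T cell libraries (-0.55). Stat4, which relays IL-12 signals, stood at 289.6 and 228 CPM in the ILC2 libraries and 394 and 409 CPM in the CD8 T cell libraries (-0.60). Csf1, the macrophage growth factor, was the most different of the higher ones, at 282 and 313 CPM in the ILC2 libraries and 10.8 and 10.7 CPM in the CD8 T cell libraries (4.83 ± 0.12). Hlx, a homeobox factor, followed at 4.56 and 4.26 CPM in the ILC2 libraries and 0.304 and 0.403 CPM in the CD8 T cell libraries (3.66), and Ccl5, from the CD8 T cell list, was higher too, at 31.4 and 34.8 CPM in the ILC2 libraries and 7.54 and 6.83 CPM in the CD8 T cell libraries (2.24 ± 0.13). Of the 14 CD8 T cell genes, 11 were lower, 2 were not called and Ccl5 was the sole higher one.

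Lymphocyte transcription factors split into 15 higher, 12 lower and 5 not called among 32 tested. Among all genes tested 34.6% were higher and 31.8% lower. Tox2 stood at 45 and 44.6 CPM in the ILC2 libraries and 0.494 and 0.508 CPM in the CD8 T cell libraries (6.51 ± 0.16) and Pparg, the lipid-sensing nuclear receptor used by ILC2s and alveolar macrophages, at 102 and 97.2 CPM in the ILC2 libraries and 4.78 and 3.61 CPM in the CD8 T cell libraries (4.61 ± 0.14). Tcf7 and Lef1, the Wnt pathway factors of naive and memory T cells, were lower: Tcf7 stood at 60.8 and 55.6 CPM in the ILC2 libraries and 216 and 233 CPM in the CD8 T cell libraries (-1.91) and Lef1 at 37.4 and 39.8 CPM in the ILC2 libraries and 143 and 144 CPM in the CD8 T cell libraries (-1.86). Satb1, a chromatin organiser of thymocytes, stood at 408 and 339.7 CPM in the ILC2 libraries and 692 and 709 CPM in the CD8 T cell libraries (-0.87). Ets1 was called higher by 0.24 ± 0.10 (edgeR adjusted p = 0.0421), a call that leaving out ILC2 library 2, CD8 T cell library 1 or CD8 T cell library 2 ended, with values of 0.19, 0.18 and 0.30. Library totals only (0.20), upper quartile scaling (0.13), DESeq2 (0.22) and the replicate block (0.24) ended it as well.

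Genes of naive and memory T cells and of lymph node homing were lower in 11 of 17 cases, higher in 5 and not called in 1. Ccr7, the lymph node homing receptor, stood at 479.5 and 502 CPM in the ILC2 libraries and 2076 and 2378 CPM in the CD8 T cell libraries (-2.14 ± 0.11; edgeR adjusted p = 3.89e-10). In the opposite direction, Il6st, the signal chain of IL-6 family receptors, stood at 77.4 and 82.6 CPM in the ILC2 libraries and 13.5 and 12.7 CPM in the CD8 T cell libraries (2.65) and Il7r, which both ILC2s and memory T cells need, at 261 and 252 CPM in the ILC2 libraries and 137 and 157 CPM in the CD8 T cell libraries (0.84). Genes of tissue homing and retention were higher in 11 of 21 cases, lower in 4 and not called in 6. The shares among all genes tested, for both of these lists, were 34.6% higher and 31.8% lower. The integrin chains Itgb7 and Itgb1 each had a log2 difference of 2.02: Itgb7 stood at 1469 and 1530.2 CPM in the ILC2 libraries and 375 and 385 CPM in the CD8 T cell libraries, and Itgb1 at 821 and 795 CPM in the ILC2 libraries and 204 and 204 CPM in the CD8 T cell libraries. Ccr1, a receptor of inflammatory chemokines common on myeloid cells, stood at 132 and 163 CPM in the ILC2 libraries and 3.08 and 2.8 CPM in the CD8 T cell libraries (5.69 ± 0.15). Cxcr3, which guides type 1 lymphocytes, and Itgae (CD103) were lower, Cxcr3 at 5.07 and 5.92 CPM in the ILC2 libraries and 31.8 and 24.6 CPM in the CD8 T cell libraries (-2.32) and Itgae at 6.49 and 8.64 CPM in the ILC2 libraries and 20.8 and 16.9 CPM in the CD8 T cell libraries (-1.28).

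Of 16 inhibitory receptor genes 6 were higher, 6 lower and 4 not called, near the shares among all genes tested (34.6% higher, 31.8% lower). Pdcd1 (PD-1) stood at 232 and 234 CPM in the ILC2 libraries and 202 and 278 CPM in the CD8 T cell libraries (-0.01 ± 0.13; edgeR adjusted p = 0.953), so that the groups overlapped. Lag3 stood at 10.3 and 12.5 CPM in the ILC2 libraries and 48 and 60.0 CPM in the CD8 T cell libraries (-2.21 ± 0.14) and Cd160 at 74.3 and 54.3 CPM in the ILC2 libraries and 158 and 186 CPM in the CD8 T cell libraries (-1.38 ± 0.14), both lower in the ILC2 libraries. Lilrb4a, an inhibitory receptor of myeloid cells and ILC2s, stood at 794 and 681 CPM in the ILC2 libraries and 77.8 and 64.4 CPM in the CD8 T cell libraries (3.41 ± 0.12), and Cd200r1 at 115 and 111 CPM in the ILC2 libraries and 3.23 and 2.47 CPM in the CD8 T cell libraries (5.35 ± 0.14).

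Genes of antigen presentation were mostly higher in the ILC2 libraries. The title of the series concerns antigen presentation by ILC2s. Of 19 tested MHC class II genes 12 were higher, 2 lower and 5 not called (median 1.53), and upper quartile scaling called 4 lower. Among all genes tested 34.6% were higher and 31.8% lower. Cd74, the invariant chain, stood at 541 and 529.7 CPM in the ILC2 libraries and 59.9 and 53.9 CPM in the CD8 T cell libraries (3.27 ± 0.11; edgeR adjusted p = 2.62e-12). The lysosomal proteases Ctsl and Lgmn, which trim antigen and the invariant chain, stood at 378 and 466 CPM in the ILC2 libraries and 13.5 and 15 CPM in the CD8 T cell libraries (4.92) for Ctsl and at 124 and 138 CPM in the ILC2 libraries and 2.34 and 1.72 CPM in the CD8 T cell libraries (6.06) for Lgmn. H2-DMa, a chaperone of peptide loading, and Rfxap, a class II transcription factor subunit, were the 2 lower ones (-0.58 and -0.78). Among 18 genes of antigen uptake and costimulation 14 were higher, 2 lower and 2 not called. Lrp1, a scavenger receptor of macrophages and fibroblasts, stood at 177 and 209 CPM in the ILC2 libraries and 2.89 and 4.2 CPM in the CD8 T cell libraries (5.80 ± 0.17), Cd40 at 26 and 26.1 CPM in the ILC2 libraries and 0.323 and 0.0701 CPM in the CD8 T cell libraries (7.10) and Cd274 (PD-L1) at 208 and 241 CPM in the ILC2 libraries and 38.9 and 40.5 CPM in the CD8 T cell libraries (2.54 ± 0.11). Scarb1 and Cd83 were lower (-0.86 and -0.76). Macrophage and B cell markers were higher in the ILC2 libraries as well, with 9 of 10 and 9 of 9 tested members higher. The macrophage list summed to 14871 and 15662 CPM against 212 and 215 CPM. The B cell list summed to 3339.7 and 3428 CPM against 265 and 259.9 CPM. Of the dendritic cell list 5 of 7 tested members were higher, but its summed level was lower in the ILC2 libraries, at 772 and 816 CPM against 949.6 and 976 CPM. In co-cultured ILC2s the macrophage list summed to 1092 and 951 CPM and the B cell list to 842 and 773 CPM. The class II list summed to 3062 and 3301 CPM in ILC2s alone and 2455 and 2657 CPM in co-cultured ILC2s. For the uptake list these sums were 1929 and 2021 CPM and 1326 and 1175 CPM. The part of macrophage, B cell and dendritic cell RNA in the class II and uptake differences was not tested.

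MHC class I genes, which nearly all cells express, were higher in 15 of 20 cases, lower in 4 and not called in 1. Over all genes tested the shares were 34.6% higher and 31.8% lower. The heavy chains led by level: H2-D1 stood at 6749 and 7597 CPM in the ILC2 libraries and 3174 and 3222 CPM in the CD8 T cell libraries (1.20 ± 0.11) and H2-K1 at 5182 and 5816 CPM in the ILC2 libraries and 2688 and 2674 CPM in the CD8 T cell libraries (1.07 ± 0.10). These 2 genes are near-identical in parts, so their separate values are uncertain. B2m, the light chain, stood at 3451 and 3809.6 CPM in the ILC2 libraries and 2312 and 2222 CPM in the CD8 T cell libraries (0.72 ± 0.10), and Tapbp (tapasin) at 988 and 1173 CPM in the ILC2 libraries and 287 and 299.8 CPM in the CD8 T cell libraries (1.92 ± 0.11). The proteasome genes Psme1 and Psmb8 were lower, by less than 1.5-fold (-0.40 and -0.38).

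Arginine metabolism showed its 3 largest differences in genes of arginine use and import. Of 15 tested genes 7 were higher, 4 lower and 4 not called, beside 34.6% higher and 31.8% lower among all genes tested. Nos2, inducible nitric oxide synthase, which competes with arginase for arginine, stood at 850.2 and 804 CPM in the ILC2 libraries and 9.38 and 7.9 CPM in the CD8 T cell libraries (6.62 ± 0.13). Slc7a2, an arginine transporter of macrophages and other cells, stood at 156 and 200.2 CPM in the ILC2 libraries and 1.16 and 0.788 CPM in the CD8 T cell libraries (7.56 ± 0.19). The related transporter Slc7a1 was lower, at 56.5 and 57.2 CPM in the ILC2 libraries and 140.4 and 134 CPM in the CD8 T cell libraries (-1.23 ± 0.10). Odc1, which starts polyamine synthesis, was 883 and 981 CPM in the ILC2 libraries and 789.5 and 741 CPM in the CD8 T cell libraries (0.32 ± 0.10; edgeR adjusted p = 0.0114). The call of Odc1 ended without ILC2 library 2 (0.22), without CD8 T cell library 2 (0.29) and with upper quartile scaling (0.22). Arg1 stayed high in the co-cultured ILC2 libraries, at 1647 and 1785 CPM, while Nos2 was 98.6 and 93.2 CPM and Slc7a2 5.03 and 3.81 CPM there. Several marker lists were lower in co-cultured ILC2s than in ILC2s alone as well. The macrophage list went from 14871 and 15662 to 1092 and 951 CPM, and the fibroblast list from 9133 and 9893 to 116 and 121 CPM. The smooth muscle list went from 292 and 294 to 2.97 and 3.52 CPM, and the B cell list from 3340 and 3428 to 842 and 773 CPM. The part of RNA from such cells in the Nos2 and Slc7a2 values was not tested.

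Growth and energy metabolism genes were lower in the ILC2 libraries nearly throughout. Of 33 cell cycle genes 28 were lower, 1 higher and 4 not called (median -0.68). Ccnb2, a mitotic cyclin, stood at 111 and 104 CPM in the ILC2 libraries and 277 and 261 CPM in the CD8 T cell libraries (-1.29 ± 0.10) and Pcna, the replication clamp, at 181 and 191 CPM in the ILC2 libraries and 492 and 428 CPM in the CD8 T cell libraries (-1.26 ± 0.10), so dividing-cell transcripts were present on both sides. Ccnd1, a cyclin that lymphocytes use little, was the higher one, at 39.2 and 42.2 CPM in the ILC2 libraries and 1.2 and 0.999 CPM in the CD8 T cell libraries (5.25 ± 0.15). Of 22 glycolysis genes 18 were lower, 3 higher and 1 not called (median -1.17). Eno1 (enolase) stood at 5327 and 5216 CPM in the ILC2 libraries and 11796 and 12818 CPM in the CD8 T cell libraries (-1.19 ± 0.10; edgeR adjusted p = 1.66e-07) and Ldha (lactate dehydrogenase A) at 4345 and 4867 CPM in the ILC2 libraries and 10357 and 11047 CPM in the CD8 T cell libraries (-1.18 ± 0.11). Hif1a, the oxygen-sensing factor that acts on this pathway, was higher, at 1116 and 1029.9 CPM in the ILC2 libraries and 326 and 382 CPM in the CD8 T cell libraries (1.64 ± 0.11).

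Of 26 oxidative phosphorylation genes 25 were lower and 1 was not called (median -0.82). Atp5b, the beta subunit of ATP synthase, stood at 1566 and 1887 CPM in the ILC2 libraries and 3219.8 and 3189 CPM in the CD8 T cell libraries (-0.85 ± 0.11), and Ndufa4 had the largest difference, at 21.9 and 26.9 CPM in the ILC2 libraries and 81.7 and 76.5 CPM in the CD8 T cell libraries (-1.66). Cholesterol and fatty acid genes were lower in 18 of 24 cases, higher in 4 and not called in 2. Fdps and Mvd of the mevalonate pathway were lower, Fdps at 209 and 174 CPM in the ILC2 libraries and 658 and 669 CPM in the CD8 T cell libraries (-1.76 ± 0.11) and Mvd at 22.7 and 24.4 CPM in the ILC2 libraries and 94.7 and 91.9 CPM in the CD8 T cell libraries (-1.95). Among the 4 higher ones, Dgat1, which makes triglycerides, stood at 994 and 1030.2 CPM in the ILC2 libraries and 79.2 and 94.2 CPM in the CD8 T cell libraries (3.58 ± 0.12; edgeR adjusted p = 3.52e-12), and Plin2, which coats lipid droplets, at 405 and 426 CPM in the ILC2 libraries and 74 and 79.2 CPM in the CD8 T cell libraries (2.48 ± 0.10). Dgat2, which also makes triglycerides, was lower, as given above. Of 83 tested ribosomal protein genes 80 were lower, 1 higher and 2 not called (median -1.08). The higher one was Rps4l, an Rps4 relative named after its value was seen, at 32.3 and 27.8 CPM against 9.15 and 6.75 CPM. Beside these lists, 34.6% of all genes tested were higher and 31.8% lower, with a median of 0.012.

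**Figure D5:**
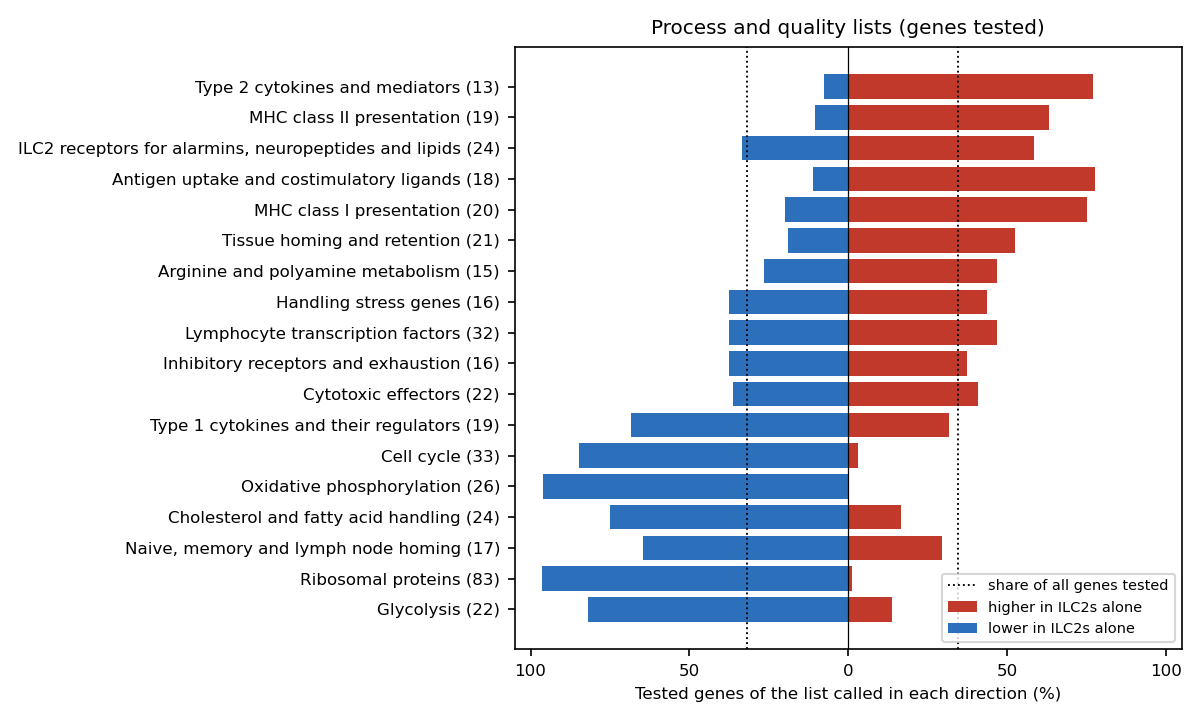
Share of tested genes of each process or quality list called higher (right, red) or lower (left, blue) in ILC2s alone, ordered by the list's median difference; the dotted lines mark the shares among all genes tested, 34.6% and 31.8%. Type 2, antigen presentation and ILC2 receptor lists lie at the top, and ribosomal, glycolysis, respiratory and cell cycle lists reach past 80% on the lower side.

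Genes that respond to cell handling were divided, with 7 of 16 higher, 6 lower and 3 not called (median 0.16), beside 34.6% and 31.8% of all genes tested. Dusp1, a stress-induced phosphatase, stood at 62 and 75.5 CPM in the ILC2 libraries and 20.1 and 20.1 CPM in the CD8 T cell libraries (1.81), and Jund, an AP-1 subunit, at 381 and 332 CPM in the ILC2 libraries and 825 and 914 CPM in the CD8 T cell libraries (-1.25). None of 10 mitochondrially encoded genes was in either table, so their share gives no check of RNA quality here. Xist, which female cells transcribe from the inactive X chromosome, was read in all 4 libraries (101 and 110.0 against 209.7 and 170.2 CPM), and the 4 Y-linked genes looked for were in neither table.

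The co-cultured libraries allowed the same cell type contrast in separate samples. Of the 2912 genes at least 2-fold higher in ILC2s alone, 2850 were also tested there, and 1873 of them (65.7%) were called higher and 360 (12.6%) lower. Of 1648 tested genes at least 2-fold lower in ILC2s alone, 935 (56.7%) were called lower and 157 (9.53%) higher. Among all 15265 genes tested in co-culture, 34.2% were higher and 34.6% lower. A direct test of the change in contrast, as an interaction over all 8 libraries, called 8324 of 15532 genes (53.6%; edgeR quasi-likelihood test, adjusted p under 0.05). Il1rl1 and Arg1 were more different in co-culture: Il1rl1 reached 2399 and 2084 CPM in ILC2s and 0.695 and 0.388 CPM in CD8 T cells. Chil3, in contrast, stood at 0.289 and 12.2 CPM in co-cultured ILC2s, Col1a1 at 0.64 and 0.312 CPM and Timp1 at 4.72 and 6.03 CPM. The co-cultured ILC2 replicates were thus far apart for Chil3. Gzmb stood at 95.2 and 117 CPM in co-cultured ILC2s and 4320.4 and 4497 CPM in co-cultured CD8 T cells, and Ifng at 0.371 and 3.12 and 106 and 106 CPM. Of the 10 largest differences in each direction, the contrast of Chchd10 alone was not called different between the cultures (edgeR adjusted p = 0.651).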

How the data were processed

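The authors deposited raw read counts per gene symbol in 2 tables, with 4 libraries each (18389 symbols for ILC2s, 17642 for CD8 T cells); the lowest count in either is 1. Per the labels' protocols, Trizol was used for extraction and the SMART-Seq v4 low-input kit for library construction. Tools named in the submitters' processing notes are StringTie 2.1.3b, SAMtools 1.9, HISAT2 2.1.0 and Trimmomatic 0.38, with the build mm10. Annotation, strand setting and treatment of shared reads: not given in the sources used here. Related, overlapping and antisense genes are therefore uncertain.

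Symbols in both tables were tested on the deposited counts of the 4 libraries labelled alone by the quasi-likelihood test of edgeR 4.0.16 under R 4.3.3 (low counts removed by filterByExpr, TMM scaling, p adjusted by Benjamini-Hochberg, threshold 0.05). The filter left out 1030 of 16226 symbols. The SE is the log2 difference divided by the square root of F. The model had 2 residual degrees of freedom and 11.8 prior ones borrowed from other genes. The interaction used all 8 libraries. CPM is the count divided by the total of the full table. Replicate counts differed beyond sampling noise, with a chi-square per gene of 27.31 (ILC2s) and 13.94 (CD8 T cells), and each library counts as 1. Counts of 15196 genes were simulated with 92 genes changed by 1 on the log2 scale and 108 changed by 2. Of these, 85.9% and 98.1% were recovered, with 13 false calls. The observed contrast called 66.5% of genes, many with larger differences, so these figures do not give its error rate. Alternative tools were limma-voom (limma 3.58.1) and DESeq2 1.42.0.

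Genes named are the 4 markers, the 10 largest called differences in each direction (mean log2 CPM 4 or more, predicted or clone-type symbols left out), and, for each of 35 lists, the 4 members with the highest level and the 2 largest called differences in each direction; other genes named from a list were chosen after their values were seen. From genes in 1 table, the 10 highest and the list members were eligible. Some genes of these lists are not reported here. The members and lists were chosen with earlier results of these data known. Sequences are from RefSeq (GRCm38.p6); all 4 genes sought were matched. Positions and start sites use the same build.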

Additional observations from a re-analysis of the deposited data

Results flagged for a closer look

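The cell type contrast of 21 of the 22 named marker and top-ranking genes differed between separate culture and co-culture by the interaction test over all 8 libraries (edgeR quasi-likelihood test, adjusted p under 0.05), where 53.6% of all genes tested did. Of the 22 genes 20 were chosen for the size of their contrast in separate culture, which is 1 of the 2 parts of the interaction, so nothing is read from this count. The values below are the contrast in separate culture minus the contrast in co-culture, on the log2 scale.

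For 15 genes the value was positive, which means that the ILC2 libraries stood higher, relative to CD8 T cells, in separate culture than in co-culture. Among the genes higher in ILC2s alone it was 12.31 for Chil3, 12.29 for Col1a1, 10.33 for Timp1, 9.19 for Ccn1, 6.19 for Ptgs2, 5.94 for Igha, 5.19 for Ptges and 3.92 for Igkc. The value of Chil3 rests on co-cultured ILC2 libraries at 0.289 and 12.2 CPM, which differ widely. For these 8 genes, products of matrix, macrophages and plasma cells among them, the cell types stood closer together in co-culture. Among the genes lower in ILC2s alone it was 5.90 for Cd8a, 3.41 for Gzmb, 3.15 for Dapl1, 3.05 for Cd5, 2.89 for Ifng, 2.45 for Slamf7 and 0.95 for Cth. For these genes the cell types stood farther apart in co-culture.

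For 6 genes the value was negative. It was -1.44 for Slc7a3, -1.64 for Aldoc, -1.36 for Slc2a3, -2.64 for Arg1, -3.03 for Il1rl1 and -5.60 for Lta. Il1rl1 and Arg1 stood farther apart in co-culture, and Slc7a3, Aldoc and Slc2a3 closer together. Lta was 12.7 and 13 CPM in co-cultured ILC2s and 2.3 and 2.3 CPM in co-cultured CD8 T cells, the reverse of its order in separate culture.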

How the results depend on the processing

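The count of genes differing between ILC2s alone and CD8 T cells alone (10101) lay between 8237 and 10239 under the filters, scalings, tools and fits tried, and between 8527 and 9747 when 1 library was left out, where the lone library is assumed to vary like the other group. Leave-one-out ranges were 4527 to 5035 genes higher, 4000 to 4712 lower, 2844 to 2952 at least 2-fold higher and 1536 to 1746 at least 2-fold lower, and 7097 to 8429 for the interaction. A filter of at least 1 CPM in all 4 libraries, which left 11690 genes to test, gave 1810 genes at least 2-fold higher in place of 2912, and 983 at least 2-fold lower in place of 1680. That filter also left fewer genes called higher in the lists of B cells (3), NK cells (2), granulocytes (1), fibroblasts (1), smooth muscle (1) and epithelium (1), and none in the cell cycle list, which had 2 without CD8 T cell library 1. The share of higher genes among those called moved from 52.1% to 45.8% with upper quartile scaling, which also gave the median log2 difference over all genes as -0.092.

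Replicate numbers are shared between the groups, and deviations of same-numbered libraries correlated at -0.017 over 15196 genes, so no shared deviation was seen. The labels name no pairing, and a correlation near 0 between different cell types cannot exclude one. A fit with the replicate number as a block called 10164 genes, and 8245 in the interaction. Among the named genes it ended the call of Ets1 and no other.

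Of 2431 values for 191 named genes, 2385 kept direction and call, 30 lost the call, 4 gained it and 12 changed sign, all 12 in genes not called to begin with. With upper quartile scaling Ikzf2 was at -0.014, Tcrg-C2 at -0.039 and Serpinb9 at -0.071, and Serpinb9 was at -0.0050 with library totals only. Pdcd1 was at 0.023 with the stricter filter, 0.0094 with limma-voom and 0.0098 with the replicate block. With 1 library left out, Serpinb9 ranged from -0.031 to 0.085, Selplg from -0.16 to 0.035, Pdcd1 from -0.23 to 0.25 and Klrc1 from -0.30 to 0.12. The cause was not tested. With 2 libraries a side, depth limits genes at a few counts, such as Jchain in CD8 T cells.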

Other observations

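Variable segments of antigen receptor genes, looked at after the other values were seen, were present in both cell types' libraries. Of the Trbv segments of the T cell receptor beta chain, 23 were in the CD8 T cell table, and 10 of these were also in the ILC2 table. Summed over the segments of each cell type's own table, their level was 47.8 and 39.3 CPM in ILC2s alone, 194 and 187 CPM in CD8 T cells alone and 1.9 and 2.58 CPM in co-cultured ILC2s. Over the 10 shared segments, Trbv13-2 made up 21% and 19% of the segment counts in the ILC2 libraries and 19.4% and 19.5% in the CD8 T cell libraries. Trbv3 made up 9.2% and 10.2% of the segment counts in the ILC2 libraries and 13.3% and 13.6% in the CD8 T cell libraries. No single segment dominated in either group. For the alpha chain, 109 Trav segments were in the CD8 T cell table, and 11 of these in the ILC2 table. The variable segments are similar in sequence and their levels are uncertain.

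Immunoglobulin variable segments were listed in the ILC2 table and not in the CD8 T cell table: 41 Igkv and 73 Ighv segments. The Igkv segments summed to 225 and 251 CPM in ILC2s alone and 43.6 and 36.6 CPM in co-cultured ILC2s, and the Ighv segments to 155 and 136 and 32.5 and 34.4 CPM.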
